A study of Homo sapiens with 4 samples.

Results

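The 41 genes described here are 18 genes of glycolysis, 16 other genes known as targets of the hypoxia-inducible factors (HIFs) and 7 genes that form or regulate the HIFs. They were chosen by name from the pathway, and all 41 were found by symbol among the 17141 genes of the deposited table. Their RNA levels were compared between LNCaP cells that stably overexpress RRM2 (LNCaP-RRM2) and LNCaP cells that carry an empty vector (LNCaP-EV). Each group has 2 libraries. LNCaP is a human prostate cancer line that expresses the androgen receptor. RRM2 is a subunit of ribonucleotide reductase, which turns ribonucleotides into the building blocks of DNA. Per the study's methods, the lines were made with lentiviral vectors and kept under puromycin, and per the labels the cells came from ATCC and were grown in standard conditions. No treatment, oxygen level or time point is given for either group. Neither the labels nor the methods state whether libraries within a group are separate cultures of 1 selected line. The p-values therefore reflect library-to-library spread alone, which may be technical.

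In cells with enough oxygen, prolyl hydroxylases mark the HIF alpha subunits, and the VHL protein then directs them to destruction. When oxygen is low, HIF-1 alpha (HIF1A) or HIF-2 alpha (EPAS1) pairs with ARNT and binds a short DNA element near target genes. The targets include glucose transporters, glycolytic enzymes, enzymes that modify collagen and brakes on the pathway itself. Control of the alpha subunits acts mainly on the protein, which RNA counts do not measure.

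RRM2 itself had 318 and 343 CPM, the count relative to library size after TMM scaling, in the LNCaP-EV libraries and 9291 and 8979 CPM in the LNCaP-RRM2 libraries, a 27.6-fold difference that matched the labels. Introduced and resident copies of RRM2 were not told apart. The libraries held 26601061 to 32601519 counts. The 8 prostate luminal marker genes found in the table had summed levels of 6133 and 6065 CPM in LNCaP-EV and 9527 and 9954 CPM in LNCaP-RRM2. For all markers, CPM were taken over the library totals without TMM scaling. Of the markers of other cell types, 2 of 4 for fibroblasts were found, COL1A1 and COL1A2, whereas PDGFRA and DCN were not. The 2 summed to 10.9 and 6.82 CPM in LNCaP-EV and 33.6 and 25.0 CPM in LNCaP-RRM2. Nearly all of this was COL1A1 (10.8 and 6.64 against 33.5 and 24.8 CPM). COL1A2 had 0.113 to 0.188 CPM over the libraries. The part of these markers in the results was not tested. For endothelial cells 1 of 3 was found (VWF, 6.53 to 11.6 CPM), and for leukocytes 1 of 3 (CD68, 5.61 and 5.59 CPM in LNCaP-EV against 24.9 and 23.8 CPM in LNCaP-RRM2). In bulk RNA, fewer cells of a type and less RNA per cell cannot be told apart.

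HIF dimers bind the core letters ACGTG or GCGTG. These were searched on both strands, so CACGT and CACGC also counted, in the 250 bases before the start of each gene, with overlapping matches counted once. The sequences are RefSeq promoters of GRCh38.p14. For each gene, the start nearest to the deposited 5′ end was taken among those in the promoter set used. In this set 37 of the 41 genes had a start (PFKFB2, BNIP3L, NDRG1 and VHL had none). The set lacks some starts, since the RefSeq gene starts of PFKP, P4HA2 and PFKFB4 lie nearer to the deposited 5′ ends. The 4 members with the largest differences in RNA are shown, with ENO1, an abundant glycolytic enzyme gene, for contrast. They are written 5′ to 3′ along the gene's strand, and capitals mark the core letters. They lie at chr1:203026241-203026490 (plus strand) for PPFIA4, chr11:10304823-10305072 (plus) for ADM, chr10:73096867-73097116 (minus) for P4HA1, chr3:48556804-48557053 (minus) for PFKFB4 and chr1:8878687-8878936 (minus) for ENO1. The PFKFB4 start used lies 4377 bases from the deposited 5′ end of that gene.
PPFIA4: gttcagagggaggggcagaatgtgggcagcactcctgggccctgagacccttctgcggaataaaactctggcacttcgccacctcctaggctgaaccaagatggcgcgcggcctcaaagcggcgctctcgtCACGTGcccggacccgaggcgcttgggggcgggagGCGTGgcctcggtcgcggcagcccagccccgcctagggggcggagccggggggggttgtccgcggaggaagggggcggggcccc
ADM: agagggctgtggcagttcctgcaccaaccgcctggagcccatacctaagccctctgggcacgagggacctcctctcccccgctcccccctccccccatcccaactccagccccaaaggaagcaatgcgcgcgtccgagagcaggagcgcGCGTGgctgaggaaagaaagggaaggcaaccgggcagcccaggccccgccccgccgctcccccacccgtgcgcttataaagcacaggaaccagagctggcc
P4HA1: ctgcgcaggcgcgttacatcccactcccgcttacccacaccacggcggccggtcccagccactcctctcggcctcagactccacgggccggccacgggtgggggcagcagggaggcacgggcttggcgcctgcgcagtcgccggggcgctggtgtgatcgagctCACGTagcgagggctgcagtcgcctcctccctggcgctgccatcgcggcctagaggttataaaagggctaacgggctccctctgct
PFKFB4: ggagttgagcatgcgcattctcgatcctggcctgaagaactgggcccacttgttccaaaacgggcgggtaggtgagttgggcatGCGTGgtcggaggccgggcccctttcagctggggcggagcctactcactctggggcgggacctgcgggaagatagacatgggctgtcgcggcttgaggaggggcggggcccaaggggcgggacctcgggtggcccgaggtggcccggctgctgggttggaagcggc
ENO1: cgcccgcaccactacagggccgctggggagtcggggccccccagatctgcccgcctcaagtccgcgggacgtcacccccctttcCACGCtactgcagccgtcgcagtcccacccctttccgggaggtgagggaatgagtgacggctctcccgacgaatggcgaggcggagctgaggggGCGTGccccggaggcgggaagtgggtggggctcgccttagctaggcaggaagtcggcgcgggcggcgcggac

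The PPFIA4 promoter held 2 matches, 1 of them the palindrome read on both strands, and ENO1 also held 2, whereas ADM, P4HA1 and PFKFB4 held 1 each. At least 1 match was found in 25 of the 37 promoters (67.6%) and in 6391 of 11273 promoters of all genes tested (56.7%). By list, the share was 64.7% for glycolytic genes, 71.4% for the other HIF targets and 66.7% for the HIF regulators. Members called higher below had a match in 8 of 11 promoters and the rest in 17 of 26. Among the called genes, PFKP, SLC2A1 and P4HA2 had no match in the window used. The starts used for them lay 450, 308 and 772 bases from the deposited 5′ ends, and other starts were not searched. A match is a description of these letters and not a bound site.

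In the LNCaP-RRM2 libraries 11 of the 41 genes were higher and 0 were lower, at an adjusted p below 0.05 and a fold above 1.5. Over all 15162 genes tested, 12.5% were called higher and 7.96% lower by the same rule. By list, 7 of 16 other HIF targets, 3 of 18 glycolytic genes and 1 of 7 HIF regulators were higher. The median log2 fold change was 0.46 for the other HIF targets, 0.09 for the glycolytic genes and -0.09 for the regulators, beside -0.03 for all genes. Without the fold limit, 12 of the other HIF targets were higher and 0 lower, 5 glycolytic genes were higher and 3 lower, and 1 regulator was higher and 3 lower. The background without the fold limit was 17.8% higher and 24.4% lower. The lower counts held only with some scalings: with DESeq2 size factors, total counts and upper-quartile factors, 1, 2 and 1 members were lower in place of 6, while 18 were higher each time. Of the 6, only ARNT passed under each of these scalings. All 6 passed with the GC trend removed, as described below. In that fit 37.4% of all genes passed as lower without the fold limit, and the median of all genes was -0.11. Passing by the 6 also depended on the LNCaP-RRM2 libraries, as it did for all genes. With 1 library left out at a time, the log2 fold changes of the 6 ran from -0.40 (ARNT) to -0.16 (HIF1A). The called genes lie, by the deposited positions on GRCh38, at chr1:203026521-203078736 (PPFIA4), chr11:10304980-10307402 (ADM), chr10:73007222-73096974 (P4HA1), chr3:48517684-48561180 (PFKFB4), chr10:3067520-3136805 (PFKP), chr1:42925375-42959176 (SLC2A1), chr17:28573115-28576933 (ALDOC), chr2:46297402-46386703 (EPAS1), chr4:185396686-185400245 (ANKRD37), chr5:132192611-132227863 (P4HA2) and chr3:4979412-4985180 (BHLHE40). All p-values were from edgeR's quasi-likelihood test with Benjamini-Hochberg adjustment over all genes tested, and they test single genes, not the lists. The count of 11 depended on single libraries, and so did the number of all genes called. Leaving out LNCaP-EV replicate 1 or 2 gave a median log2 fold change of 0.28 or 0.27 for the 41 genes. Leaving out LNCaP-RRM2 replicate 1 or 2 gave 0.30 or 0.31, beside 0.33 with all libraries. Over all genes the median in these fits was -0.04 to 0.01.

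**Figure D1:**
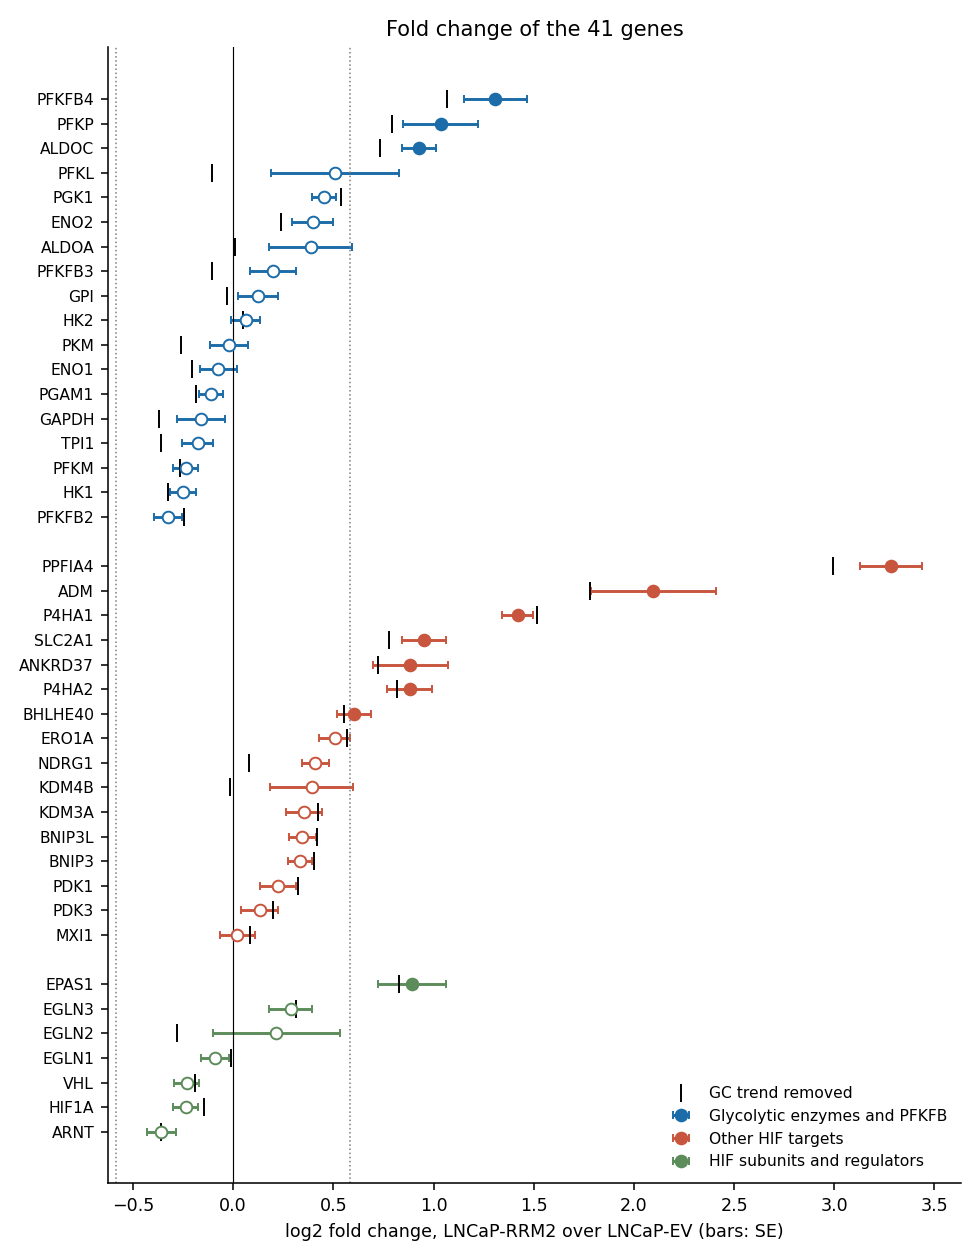
Log2 fold change of each of the 41 genes, LNCaP-RRM2 against LNCaP-EV, with its standard error (bars), grouped by list; filled points are called, black ticks give the value with the GC trend removed and dotted lines mark the fold limit. The 11 called genes lie to the right of 0, from PPFIA4 at 3.28 down to BHLHE40 at 0.60.

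Glycolysis begins with the trapping of glucose by hexokinase and its isomerisation by GPI. HK1, the housekeeping hexokinase, had 230.4 and 214 CPM in LNCaP-EV and 186 and 187 CPM in LNCaP-RRM2 (log2 fold change -0.25, adjusted p = 0.0313), under the fold limit. HK2, the inducible hexokinase of many tumours, had 109.8, 102, 108 and 113 CPM in the same order, so its groups overlapped. GPI overlapped too, at 598 and 498 against 591 and 604 CPM.

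The committed step is set by phosphofructokinase, and PFKFB enzymes make or remove its activator fructose 2,6-bisphosphate. PFKP, the platelet-type phosphofructokinase, had 56.7 and 38.8 CPM in LNCaP-EV and 104 and 91.7 CPM in LNCaP-RRM2. The groups were apart, though the LNCaP-EV libraries also differed from each other. PFKP was 2.05-fold higher (log2 fold change 1.03 ± 0.19 SE, adjusted p = 0.0107), but not without LNCaP-RRM2 replicate 1 (adjusted p = 0.0705). PFKFB4 had 15.6 and 11.6 CPM against 33.2 and 34.2 CPM. It was 2.48-fold higher (log2 fold change 1.31 ± 0.16 SE, adjusted p = 0.00435). PFKM and PFKFB2 were at -0.24 (adjusted p = 0.0290) and -0.33 (adjusted p = 0.0177) on the log2 scale, under the fold limit. With DESeq2 size factors neither they nor HK1 passed (adjusted p = 0.119, 0.0539 and 0.0927 in this order). PFKFB3 was at 0.20 and missed the threshold. PFKL, the liver-type enzyme, had 125 and 63.1 CPM in LNCaP-EV and 151 and 116 CPM in LNCaP-RRM2, so that the groups overlapped (adjusted p = 0.246).

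In the middle of the pathway, aldolase splits the 6-carbon sugar and triose phosphate isomerase and GAPDH handle the products. ALDOC, the brain-type aldolase, had 43.2 and 39.4 CPM in LNCaP-EV and 76.2 and 80.9 CPM in LNCaP-RRM2. The groups did not overlap, and ALDOC was 1.90-fold higher (log2 fold change 0.93 ± 0.09 SE, adjusted p = 0.00293). The much more abundant ALDOA had 811 and 518 CPM against 911 and 827 CPM, which did not overlap, but it missed the threshold (log2 fold change 0.39 ± 0.21 SE, adjusted p = 0.185). TPI1 was at -0.18 (adjusted p = 0.115) and GAPDH at -0.16 on the log2 scale (adjusted p = 0.319). GAPDH had 2691 and 2148 CPM in LNCaP-EV and 2151 and 2179 CPM in LNCaP-RRM2, so its groups overlapped. GENCODE names 62 pseudogenes of GAPDH, which could share its reads.

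The lower pathway yields ATP and pyruvate. PGK1, phosphoglycerate kinase, had 689 and 695 CPM in LNCaP-EV and 951 and 945 CPM in LNCaP-RRM2. It passed the test at 1.37-fold, under the fold limit (log2 fold change 0.45 ± 0.06 SE, adjusted p = 0.00541). ENO2, the neuronal enolase, was also under the limit at 0.40 (adjusted p = 0.0284). PGAM1, ENO1 and PKM, for the mutase, main enolase and pyruvate kinase, were at -0.11, -0.07 and -0.02 and missed the threshold. ENO1 had 1913 and 1661 CPM against 1673 and 1723 CPM, and PKM had 1358 and 1169 CPM against 1216 and 1274 CPM, so both overlapped. The summed level of the 18 glycolytic genes was 10258 and 8693 CPM in LNCaP-EV and 9555 and 9616 CPM in LNCaP-RRM2, and these ranges overlapped. Gene by gene, 7 of the 18 lay above without overlap and 5 below, TPI1 and PGAM1 among the latter. Of all genes tested, 34.5% lay above in this way and 40.9% below.

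**Figure D2:**
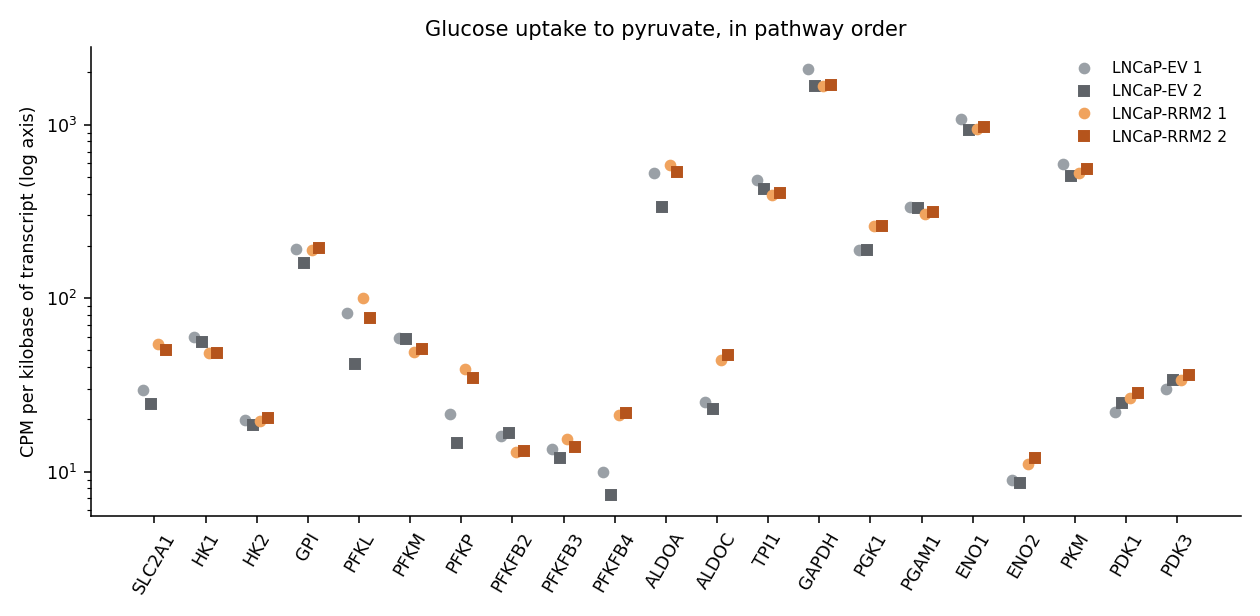
Level in CPM per kilobase of transcript (log axis) in each of the 4 libraries, in pathway order from the transporter SLC2A1 through hexokinase to pyruvate kinase and the kinases PDK1 and PDK3. PFKP, PFKFB4 and ALDOC were called higher, whereas the abundant GAPDH, ENO1 and PKM overlapped between groups.

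Per kilobase of transcript, the members spanned a wide range of levels. GAPDH was highest, with a mean of 1892 CPM per kilobase in LNCaP-EV and 1693 in LNCaP-RRM2, followed by ENO1 (1003 and 953) and PKM (550 and 542 in the same units). The lowest in LNCaP-EV were PPFIA4 at 0.218, ADM at 0.349 and EPAS1 at 0.466 CPM per kilobase, and their LNCaP-RRM2 means were 2.13, 1.53 and 0.865. The 3 least abundant members were thus all among the called genes.

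Within enzyme families, several of the called genes were the less abundant members. Shares were computed from CPM per kilobase of transcript and carry no test. PFKP made up 13.2% and 12.8% of the phosphofructokinase level in LNCaP-EV, against 20.9% and 21.4% in LNCaP-RRM2. PFKFB4 made up 25.1% and 20.4% of the PFKFB level against 42.5% and 44.6%, and PFKFB2 made up 40.5% and 46.4% against 26.2% and 26.96%. The order of these enzymes differed between the groups, with PFKFB2 first in LNCaP-EV and PFKFB4 first in LNCaP-RRM2. ALDOC took 4.57% and 6.41% of the aldolase level against 6.997% and 8.09%, and ENO2 took 0.828% and 0.915% of the enolase level against 1.17% and 1.23%. The share of P4HA2 in its pair with P4HA1 was 27.3% and 23.1% in LNCaP-EV against 18.5% and 19.1%, although both genes were called higher. The EGLN1 share was 40.2% and 46.6% against 35.4% and 39.9%. The shares of PFKL (36.3% to 53.1%), EGLN2 and EGLN3 overlapped between the groups.

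**Figure D3:**
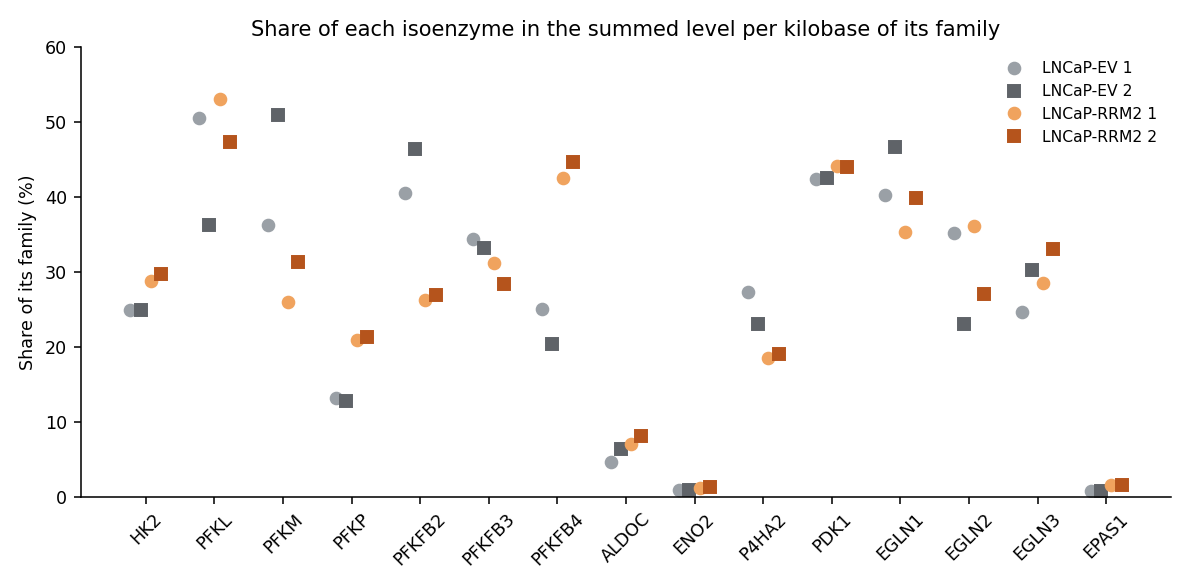
Share of the summed level per kilobase of its family held by each of 15 genes, in percent, for each of the 4 libraries. The genes are not all of 1 family, so shares are read gene by gene. PFKFB4 holds 25.1% and 20.4% in the LNCaP-EV libraries, against 42.5% and 44.6% with RRM2.

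Of the other HIF targets, the 2 with the largest differences were low in LNCaP-EV. PPFIA4, a liprin-alpha scaffold protein, had 1.46 and 1.31 CPM in LNCaP-EV and 13.5 and 13.6 CPM in LNCaP-RRM2. It was 9.74-fold higher (log2 fold change 3.28 ± 0.16 SE, adjusted p = 0.00144), with tight replicates in both groups. ADM encodes adrenomedullin, a vasodilator peptide. It had 0.538 and 0.337 CPM, from 17 and 9 counts, against 2.06 and 1.76 CPM, from 56 and 48 counts. ADM was 4.28-fold higher (log2 fold change 2.10 ± 0.31 SE, adjusted p = 0.00668), a call that was lost without LNCaP-RRM2 replicate 1 (adjusted p = 0.0649).

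The collagen prolyl 4-hydroxylases give collagen its stable triple helix. P4HA1, their main catalytic subunit, had 62.1 and 68.5 CPM in LNCaP-EV and 171 and 178 CPM in LNCaP-RRM2. It was 2.68-fold higher (log2 fold change 1.42 ± 0.08 SE, adjusted p = 0.00176). P4HA2 had 20.4 and 18.0 CPM against 33.9 and 36.8 CPM, 1.84-fold higher (adjusted p = 0.00474). Without LNCaP-RRM2 replicate 2 its adjusted p was 0.0555. The groups overlapped for neither gene, and an antisense gene, P4HA2-AS1, overlaps P4HA2 exons.

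SLC2A1, the GLUT1 glucose transporter, had 62.1 and 51.8 CPM in LNCaP-EV and 115 and 106 CPM in LNCaP-RRM2. It was 1.93-fold higher (log2 fold change 0.95 ± 0.11 SE, adjusted p = 0.00390). ANKRD37, an ankyrin-repeat protein gene, had 3.23 and 2.96 CPM against 6.41 and 5.03 CPM, 1.85-fold higher (adjusted p = 0.0168). Its exons overlap those of UFSP2 on the other strand, and no source says if strand was used in counting. The ANKRD37 call was lost without either LNCaP-RRM2 library (adjusted p = 0.139 without replicate 1 and 0.0560 without replicate 2). BHLHE40, a transcriptional repressor and clock gene, had 25.8 and 26.1 CPM against 39.2 and 39.6 CPM, 1.52-fold higher (adjusted p = 0.00607). It lay just past the fold limit and lost its call when LNCaP-EV replicate 1 was left out (0.58 on the log2 scale) and without either LNCaP-RRM2 library (adjusted p = 0.0832 and 0.0786).

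Further targets passed the test under the fold limit, at log2 fold changes of 0.33 to 0.51. They were the mitophagy receptors BNIP3 and BNIP3L, the histone demethylase KDM3A, the stress-response gene NDRG1 and ERO1A, which forms disulfides in the endoplasmic reticulum. ERO1A reached 0.60 without LNCaP-EV replicate 2, and NDRG1 did not pass once the GC trend was removed. The pyruvate dehydrogenase kinases PDK1 and PDK3, which keep pyruvate out of the mitochondrial cycle, were at 0.23 and 0.13 and missed the threshold, as did KDM4B at 0.39 and the MYC antagonist MXI1 at 0.02. Summed, the 16 genes had 993 and 989 CPM in LNCaP-EV and 1406 and 1415 CPM in LNCaP-RRM2. Both LNCaP-RRM2 values exceeded both LNCaP-EV values for 14 of the 16 genes and were below them for 0, where 34.5% of all genes tested lay above and 40.9% below.

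**Figure D4:**
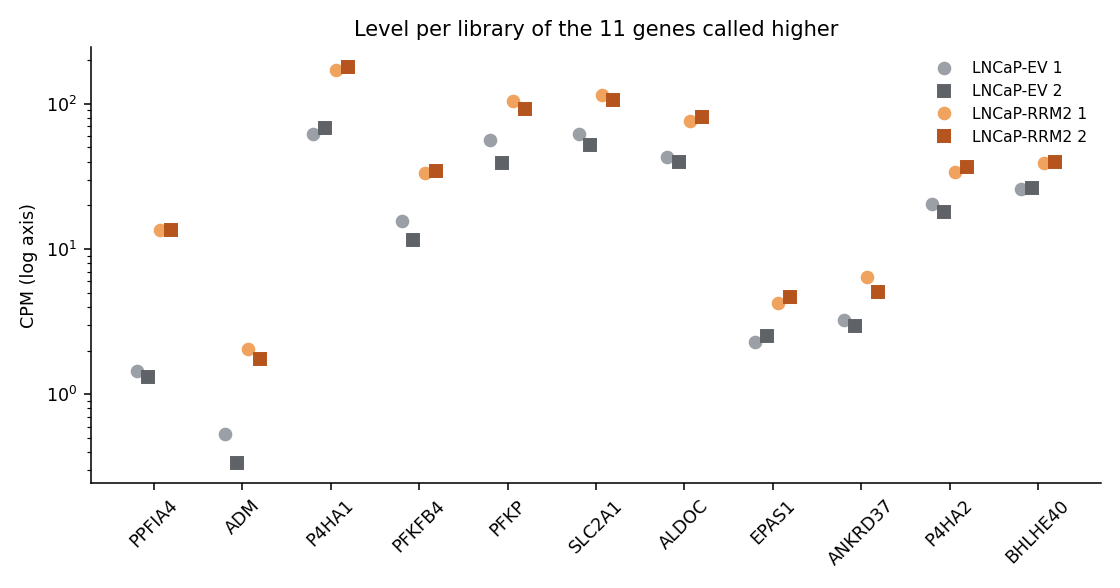
Level in CPM (log scale) of the called genes in each of the 4 libraries. The LNCaP-RRM2 points lie above both LNCaP-EV points for every gene shown, but the genes were picked by their call. Of all genes tested, 34.5% lay above in this way.

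Among the genes that form or control HIF, EPAS1 was higher and the rest were not called. EPAS1, HIF-2 alpha, had 2.31 and 2.51 CPM in LNCaP-EV and 4.24 and 4.69 CPM in LNCaP-RRM2, 1.86-fold higher (log2 fold change 0.89 ± 0.17 SE, adjusted p = 0.0124). The call was lost without LNCaP-RRM2 replicate 1 (adjusted p = 0.0825) and without replicate 2 (adjusted p = 0.0991). HIF1A, far more abundant, had 249.6 and 260.3 CPM against 214 and 219 CPM, at -0.24 (adjusted p = 0.0288). Even in LNCaP-RRM2, EPAS1 made up only 1.48% and 1.60% of the HIF alpha level per kilobase, against 0.697% and 0.726% in LNCaP-EV. ARNT, their shared partner, had 71.0 and 70.5 CPM against 54.0 and 56.3 CPM, at -0.36 (adjusted p = 0.0149). VHL had 131 and 135 CPM against 112 and 114 CPM, at -0.23 (adjusted p = 0.0327). With DESeq2 size factors HIF1A and VHL no longer passed (adjusted p = 0.125 and 0.140). HIF1A, ARNT and VHL lay under the fold limit. Together with EGLN1, 4 of the 7 genes had both LNCaP-RRM2 values below both LNCaP-EV values, and 2 had them above. Of all genes tested, 40.9% lay below in this way and 34.5% above. Of the HIF prolyl hydroxylases, EGLN1 was at -0.09, EGLN2 at 0.22 and EGLN3, itself a HIF target, at 0.29 (adjusted p = 0.0800), and none passed the test.

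Fold changes in these libraries moved with the GC content of the transcripts. Genes were cut into 10 bins by GC content, and the bin median of the log2 ratio of LNCaP-EV replicate 1 to replicate 2 went from -0.11 in the lowest bin to 0.59 in the highest. For LNCaP-RRM2 over LNCaP-EV it went from -0.23 to 0.50. The median GC content was 55.6% for the glycolytic genes, 48.7% for the other HIF targets, 47.6% for the regulators and 49.7% for all genes. With each library's trend removed, 10 members were called higher and 0 lower, beside 11.2% and 10.1% of all genes. Without the fold limit that fit had 20 members higher and 11 lower, beside 21.8% and 37.4% of all genes. Of the 11, 8 were glycolytic. They included TPI1 (-0.36), GAPDH (-0.37), PGAM1 (-0.18), ENO1 (-0.20) and PKM (-0.26), which had not passed before the trend was removed. The medians were then -0.11, 0.49 and -0.15, with -0.11 for all genes. Only BHLHE40 left the calls, at a log2 fold change of 0.55. PPFIA4 stood at 2.99, ADM at 1.78, P4HA1 at 1.52 and PFKFB4 at 1.07. PFKL, whose transcripts hold 67.8% GC and whose LNCaP-EV libraries differed 1.98-fold, went from 0.51 to -0.11, and ALDOA went from 0.39 to 0.01. NDRG1 went from 0.41 to 0.08 and no longer passed the test (adjusted p = 0.385). Without LNCaP-EV replicate 1, in turn, PFKL (1.07), ALDOA (0.73), KDM4B (0.71) and EGLN2 (0.67) were called higher.

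**Figure D5:**
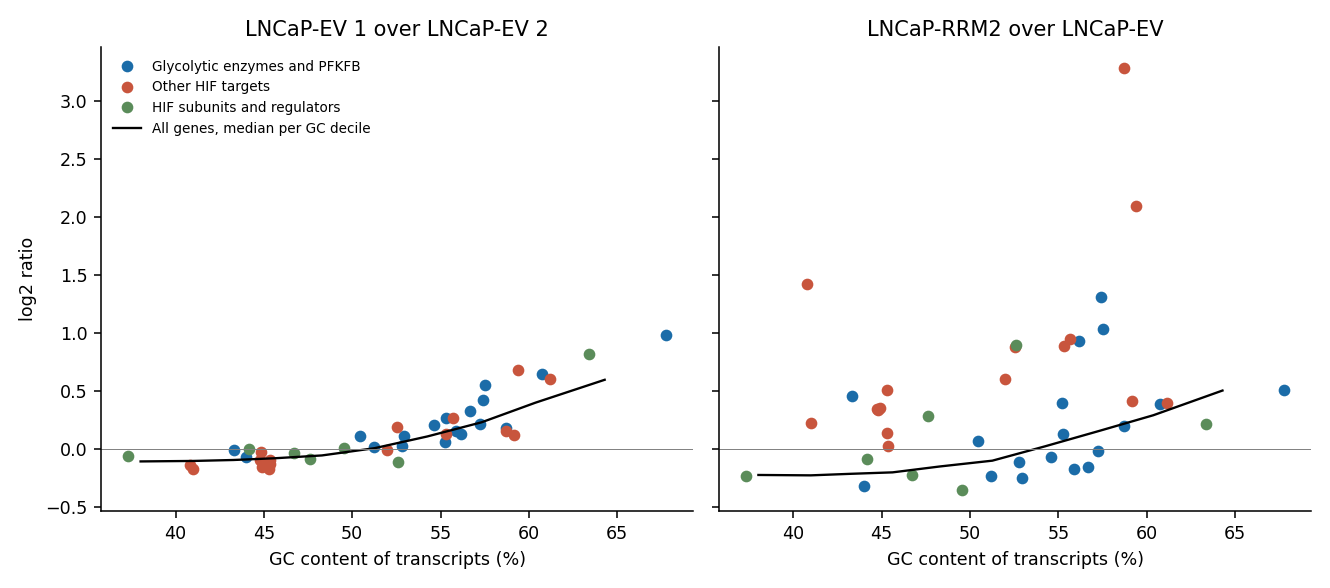
Log2 ratio of each of the 41 genes against the GC content of its transcripts in percent, for LNCaP-EV replicate 1 over replicate 2 (left) and LNCaP-RRM2 over LNCaP-EV (right), with the median of all genes in 10 bins of GC content as a line. The line runs from -0.11 to 0.59 on the left and from -0.23 to 0.50 on the right, and PPFIA4 stands highest on the right at 3.28.

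Of 56 further genes of the pathway, 51 were in the table and 48 were tested. In LNCaP-RRM2 10 were called higher and 0 lower, beside 12.5% and 7.96% of all genes tested, with a median log2 fold change of 0.12. The 6 with the smallest p are given here. CA12, a carbonic anhydrase that helps export acid, had 58.1 and 58.0 CPM in LNCaP-EV and 192 and 184 CPM in LNCaP-RRM2, 3.24-fold higher (adjusted p = 0.000921). PLOD2, a lysyl hydroxylase for collagen cross-links, had 0.443 and 0.711 CPM against 7.92 and 7.26 CPM, 13.2-fold higher (adjusted p = 0.00209). Its relative PLOD1 had 125 and 96.2 CPM against 275 and 272 CPM, 2.47-fold higher (adjusted p = 0.00297). Collagen-modifying hydroxylases of both families, P4HA and PLOD, were thus among the called genes. SLC16A3, the lactate exporter MCT4, had 5.31 and 3.18 CPM against 34.4 and 26.3 CPM, 7.09-fold higher (adjusted p = 0.00297). INSIG2, which restrains sterol synthesis, had 24.7 and 27.3 CPM against 54.4 and 59.3 CPM, 2.19-fold higher (adjusted p = 0.00277). MIR210HG, the host transcript of a hypoxia-induced microRNA, had 3.16 and 1.91 CPM against 8.88 and 8.51 CPM, 3.40-fold higher (adjusted p = 0.00597). None of these 6 overlapped between the groups, but they had been picked by their p. Of the 48 genes, 22 lay above without overlap and 17 below, beside 34.5% and 40.9% of all genes tested. LDHA, which turns pyruvate into lactate, was at 0.21 (adjusted p = 0.0802).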

How the data were processed

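RNA of 2 LNCaP-EV and 2 LNCaP-RRM2 libraries was analysed, grouped by sample title. The labels name a Zymo kit for total RNA. The study's methods state paired-end reads analysed in Partek Flow. Aligner, annotation and strand setting: not given in the sources used here. Expected counts per gene were deposited by the authors, of which 56.1% to 58.0% per library were exactly whole, and the rest were rounded. Genes that may share reads with overlapping genes or pseudogenes, such as GAPDH and PGAM1, whose counts were not all whole, are uncertain. BNIP3 has 39 named pseudogenes and had whole counts in every library, which does not settle whether reads were shared. Every table column belonged to a sample (0 others).

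Genes were filtered with filterByExpr, scaled by TMM and tested with edgeR 4.0.16 under R 4.3.3, using the quasi-likelihood test without covariates and Benjamini-Hochberg adjustment over 15162 genes. A gene was called at an adjusted p below 0.05 and a fold above 1.5. Library totals of 26601061 to 32601519 leave counting error largest for ADM. Replicates were not duplicates of 1 library (chi-square over degrees of freedom 22.0 for LNCaP-EV and 7.35 for LNCaP-RRM2), so each was kept. GC content and length are medians over protein-coding transcripts of GENCODE 29. Printed gene ends are the deposited value minus 1, because 5020 genes ended 1 base past their RefSeq end. Motifs were searched in RefSeq promoters. The fits were tested on simulated data. Alternatives were other scalings and filters, DESeq2 1.42.0, limma 3.58.1, a replicate block, GC correction and leaving out each library.

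The members and lists were chosen with earlier results of these data known. All members are named, with values in every library for those called, and at most 6 other pathway genes with the smallest p in each direction among those called. The markers of prostate luminal, fibroblast, endothelial and leukocyte cells were fixed by name.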

Additional observations from a re-analysis of the deposited data

How the results depend on the processing

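Of the single-gene results under the alternatives, 707 kept their direction and side of the threshold, 19 newly passed it, 12 no longer passed it and 25 reversed. The alternatives include the same fit without the fold limit, which could only add passing genes. Many of the 19 passed only because that limit was dropped. PPFIA4, P4HA1, PFKFB4, ALDOC, SLC2A1 and the 6 named further pathway genes were called under every alternative run. The cause of the changes below was not tested unless stated.

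Of all calls, 61.1% were higher with TMM, against 70.9% with DESeq2 size factors, 72.4% with total counts, 75.0% with upper-quartile factors and 73.2% without RRM2 and ribosomal RNA. Under these 4 scalings, in this order, the median of the other HIF targets was 0.50, 0.52, 0.54 and 0.53 and that of the regulators -0.047, -0.024, -0.010 and -0.016. The DESeq2 Wald test gave 0.50 and -0.047. The stricter filter, which tests fewer genes, gave medians of 0.19 for glycolytic genes, 0.50 and -0.065, with 612 genes called lower and 0 regulators higher, and left ADM, ANKRD37 and EPAS1 untested. Without the fold limit 3695 genes were lower, 18 members were higher and 6 lower (glycolytic 5 and 3, other HIF targets 12 higher, regulators 3 lower), and further pathway genes numbered 18 and 15. That lower count of 6 was 1, 2, 1 and 2 under the 4 scalings (glycolytic 0, 1, 0 and 1, regulators 1 each time), 2 without a low-count filter, 1 with the stricter filter and with the DESeq2 Wald test, and 11 with the GC trend removed. The further pathway count of 15 lower was 9, 10, 8 and 10 under the 4 scalings, and all genes lower numbered 2926, 2857, 2646 and 2773. Removing the GC trend gave medians of -0.11 for glycolytic genes and -0.15 for regulators, with 2 further pathway genes lower, and with the replicate block added these were -0.10, -0.15 and 2.

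Reversed by removing the GC trend, without and with the replicate block, were GPI (-0.032 and -0.032), PFKL (-0.11 and -0.10), PFKFB3 (-0.11 and -0.11), KDM4B (-0.015 and -0.012) and EGLN2 (-0.28 and -0.27). ENO1 reversed with upper-quartile factors (0.0066) and the stricter filter (0.023). PKM reversed with DESeq2 size factors (0.024), the DESeq2 Wald test (0.024), total counts (0.045), upper-quartile factors (0.059), the stricter filter (0.075) and without RRM2 and ribosomal RNA (0.053). EGLN1 reversed with the stricter filter (0.0056). None of these genes was called with all libraries.

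Leaving out each library in turn gave 427 to 2878 genes higher and 318 to 1579 lower, 6 to 14 members higher and 0 lower, 2 to 5 glycolytic genes, 4 to 8 other HIF targets and 0 to 2 regulators higher, and 6 to 12 further pathway genes higher and 0 to 1 lower. A lone library was assumed to vary like the other group. Medians ranged from 0.05 to 0.17, 0.45 to 0.54 and -0.11 to -0.08. Log2 fold changes ranged from -0.12 to 0.017 for ENO1, -0.078 to 0.076 for PKM, -0.061 to 0.14 for MXI1 and -0.11 to 0.67 for EGLN2. With the replicate block 11 members were higher and 0 lower, among 2346 genes higher and 1255 lower. Same-numbered libraries deviated together (correlation 0.41), but there are only 2 pairs and the labels do not pair them.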

Other observations

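Among the 48 further pathway genes tested, 18 were higher and 15 lower at an adjusted p below 0.05 without the fold limit (edgeR quasi-likelihood test, Benjamini-Hochberg), beside 17.8% and 24.4% of all genes. Those not called are given here with their log2 fold changes. Higher were WSB1 (0.58), VEGFA, an angiogenic growth factor (0.50), FUT11 (0.49), the lactate carrier SLC16A1 (0.47), TXNIP (0.46), PGM1 (0.33), the histone demethylase KDM5B (0.32) and HILPDA (0.28). Lower were RBX1 (-0.54), ELOC (-0.50) and CUL2 (-0.25), which are parts of the VHL ubiquitin ligase, the ligases SIAH2 (-0.51) and SIAH1 (-0.49), and HIF1AN (-0.46), which hydroxylates an asparagine of HIF alpha. ELOB, another part of the VHL ligase, was at 0.32 and missed the threshold (adjusted p = 0.434). Also lower were the glycogen branching enzyme GBE1 (-0.53), the pyruvate carriers MPC1 (-0.48) and MPC2 (-0.29), the phosphatase PDP1 (-0.39), LDHB (-0.38), BPGM (-0.38), PDHA1 (-0.38), CITED2 (-0.28) and FAM162A (-0.26). The lower count depended on the scaling, at 9 with DESeq2 size factors, 10 with total counts and 8 with upper-quartile factors.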
